A study of Mus musculus with 10 samples.

Results

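A set of 7 protein-coding genes with no place on the usual lists of lipid enzymes was examined in cultures of mouse inguinal white adipocytes. Of these, 5 were higher after norepinephrine than after saline: the fatty acid receptor gene Ffar4, the kinase gene Pim3, the starvation-response gene Depp1, the secreted guidance factor gene Sema3g and the calsyntenin gene Clstn3. The other 2, Pim1 and Pim2, were added as family controls for Pim3. The 7 genes were taken out of 28987 listed genes, by matching their symbols to Ensembl identifiers. The 5 raised genes were chosen from their norepinephrine and saline values, so for all 7 genes that difference is described and not tested.

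The cells came from inguinal fat pads of male C57BL/6 mice aged 6 to 8 weeks, were released by collagenase and dispase digestion and were grown to confluence. The sources used here describe no differentiation step. Cultures received saline, recombinant BAFF (a TNF-family cytokine of B cells) at 500 ng/ml, recombinant APRIL (the cytokine most closely related to BAFF) at 500 ng/ml, lipopolysaccharide (LPS, a bacterial cell wall component) at 100 ng/ml or norepinephrine (the sympathetic transmitter) at 1 mM, each for 24 hours. Each of the 5 groups held 2 RNA-seq libraries, named here replicates 1 and 2. No genetic modification is named in the labels. They also do not state that replicates are different mice or dishes, and p-values therefore measure only the spread between these libraries, which may be technical.

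Levels were deposited as TPM (transcripts scaled to a fixed total), a length-corrected share of a library's transcripts, so levels of different genes can be set beside each other. Totals per library lay between 953553 and 964726 TPM. The files give no read counts, so the depth behind a value is unknown. The pair labelled APRIL differed from all others: across genes their correlation with the other 8 libraries was 0.85 to 0.886, against 0.948 to 0.991 among those 8. Their summed Y-linked transcripts were 0.489 and 0.775 TPM, against 93.8 to 123 TPM in the other 8, which goes against their label of male. They are called the libraries labelled APRIL throughout, and comparisons with them are given apart. They also enter the estimate of spread behind all tests below, and counts from fits without them are given at the end.

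The labelled cell type was checked against 12 adipocyte markers. Adipoq, which encodes adiponectin, was at 379 to 1097 TPM in the 8 libraries not labelled APRIL, and Fabp4, a fatty acid binding protein of adipocytes, was at 4028 to 11802 TPM. Lep, which encodes leptin, was at or below 0.806 TPM in all 10 libraries. Macrophage markers were present as well: Lyz2, a myeloid lysozyme, reached 1192 TPM. In such mixed cultures more cells of a type and more RNA per cell cannot be told apart.

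Norepinephrine acts on adipocytes mainly through beta-adrenergic receptors, which raise cyclic AMP and activate protein kinase A. That kinase starts lipolysis and phosphorylates the transcription factor CREB, which binds the cAMP response element. Of the genes described here, Ffar4 encodes a receptor for long-chain fatty acids, PIM kinases are serine and threonine kinases that are active as soon as they are made, DEPP1 is a FOXO-regulated protein linked to autophagy and oxidative stress, SEMA3G is a secreted ligand of neuropilins and plexins, and calsyntenin 3 is a membrane protein of synapses whose gene also gives rise to an adipocyte transcript, Clstn3b.

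Against saline, mean TPM under norepinephrine was 11.1 times higher for Depp1, 7.58 times for Sema3g, 7.3 times for Clstn3, 5.04 times for Ffar4 and 3.95 times for Pim3. It was 1.47 times higher for Pim1 and 1.09 times for Pim2. Ranked by the difference in log2(TPM + 1) among the 14166 genes that reached 1 TPM in 2 or more libraries, Depp1 stood at place 8, Sema3g at 9, Clstn3 at 11, Ffar4 at 22 and Pim3 at 24, whereas Pim1 stood at 1217 and Pim2 at 6214. All 7 genes passed that filter on low values. Under LPS, a treatment the choice did not use, the raised genes lay on different sides of the saline libraries, which the choice did use. Ffar4 and Clstn3 were below saline in both LPS libraries, and Pim3, Depp1 and Sema3g were above it in both. Of all tested genes, 25.5% were below in this way and 24.2% above. None of the raised genes passed the test of LPS against saline given below, in the fit to all 10 libraries.

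**Figure D1:**
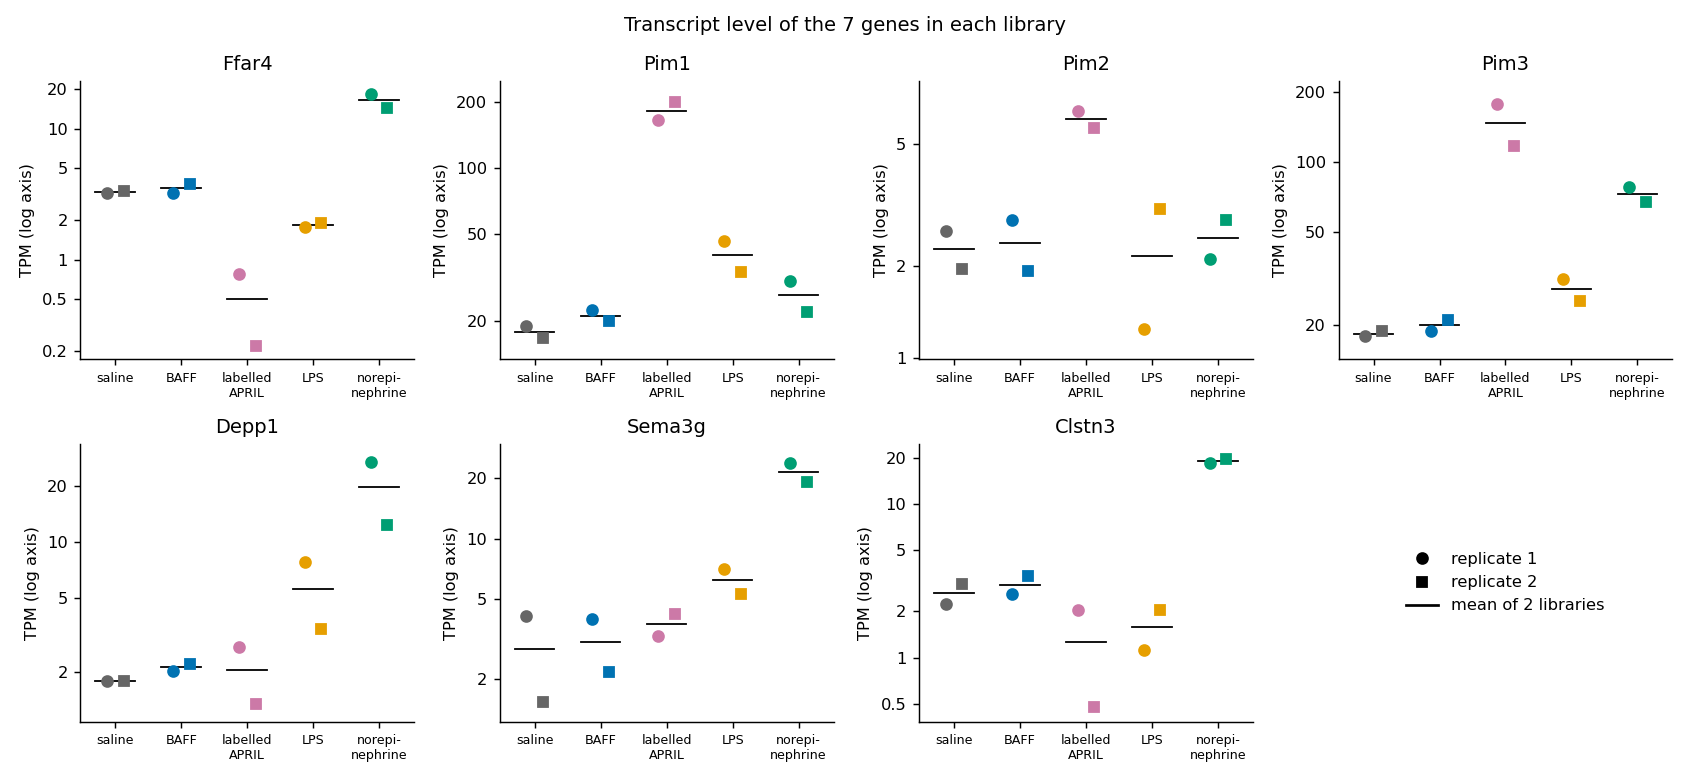
TPM (log axis) of the 7 genes in each of the 10 libraries, by treatment group; circles are replicate 1, squares replicate 2, and bars the mean of 2 libraries. Ffar4, Depp1, Sema3g and Clstn3 have their highest 2 libraries under norepinephrine, and Pim1, Pim2 and Pim3 in the libraries labelled APRIL.

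Ffar4 (ENSMUSG00000054200, GRCm38 chr19:38097071-38114263, plus strand) encodes the receptor FFAR4, also called GPR120, which couples to Gq proteins and beta-arrestin and is abundant in mature fat cells. It was at 3.21 and 3.34 TPM in saline and at 18.6 and 14.5 TPM under norepinephrine. BAFF gave 3.23 and 3.76 TPM. LPS gave 1.78 and 1.9 TPM. The 5 groups thus stood in the order labelled APRIL, LPS, saline, BAFF and norepinephrine, and among neighbours in that order only saline and BAFF overlapped. Norepinephrine libraries averaged 16.5 ± 2.91 TPM (SD, n = 2) and saline libraries 3.28 ± 0.0945 TPM (SD, n = 2), a difference of 2.02 (SE 0.21) in log2(TPM + 1). In the libraries labelled APRIL the gene was at 0.781 and 0.216 TPM.

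The other receptors for metabolites on the list fixed for Ffar4 did not share 1 pattern. Tests here and below are limma fits across all tested genes, called at a Benjamini-Hochberg adjusted p under 0.05. Hcar2, the receptor for 3-hydroxybutyrate and niacin, was at 6.59 and 6.05 TPM in saline and at 25.5 and 17.9 TPM under norepinephrine, and it rose by 1.61 in log2(TPM + 1) (adjusted p = 0.0355). Hcar1, the lactate receptor, was at 7.24 and 7.54 TPM in saline and at 16 and 13.6 TPM under norepinephrine, and it rose by 0.91 (adjusted p = 0.0382). Ffar2, the receptor for short-chain fatty acids, was at 16.6 and 16.2 TPM in saline and at 14.1 and 14.5 TPM under norepinephrine, with a difference of -0.18 (95% interval -0.78 to 0.41). In saline, on the TPM scale, Ffar2 was therefore the higher of the 2 fatty acid receptor genes, and under norepinephrine the Ffar4 and Ffar2 libraries overlapped. Ffar1 was listed at 0 in every library. Of the 10 tested genes of that list, which also holds G proteins and arrestins, 2 rose and none fell under norepinephrine, where 0.699% of all tested genes passed the same threshold. The list's median difference was 0.13, against 0.04 over all tested genes. Both calls were lost in each fit that left out a saline or norepinephrine library, with adjusted p between 0.109 and 0.239.

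**Figure D2:**
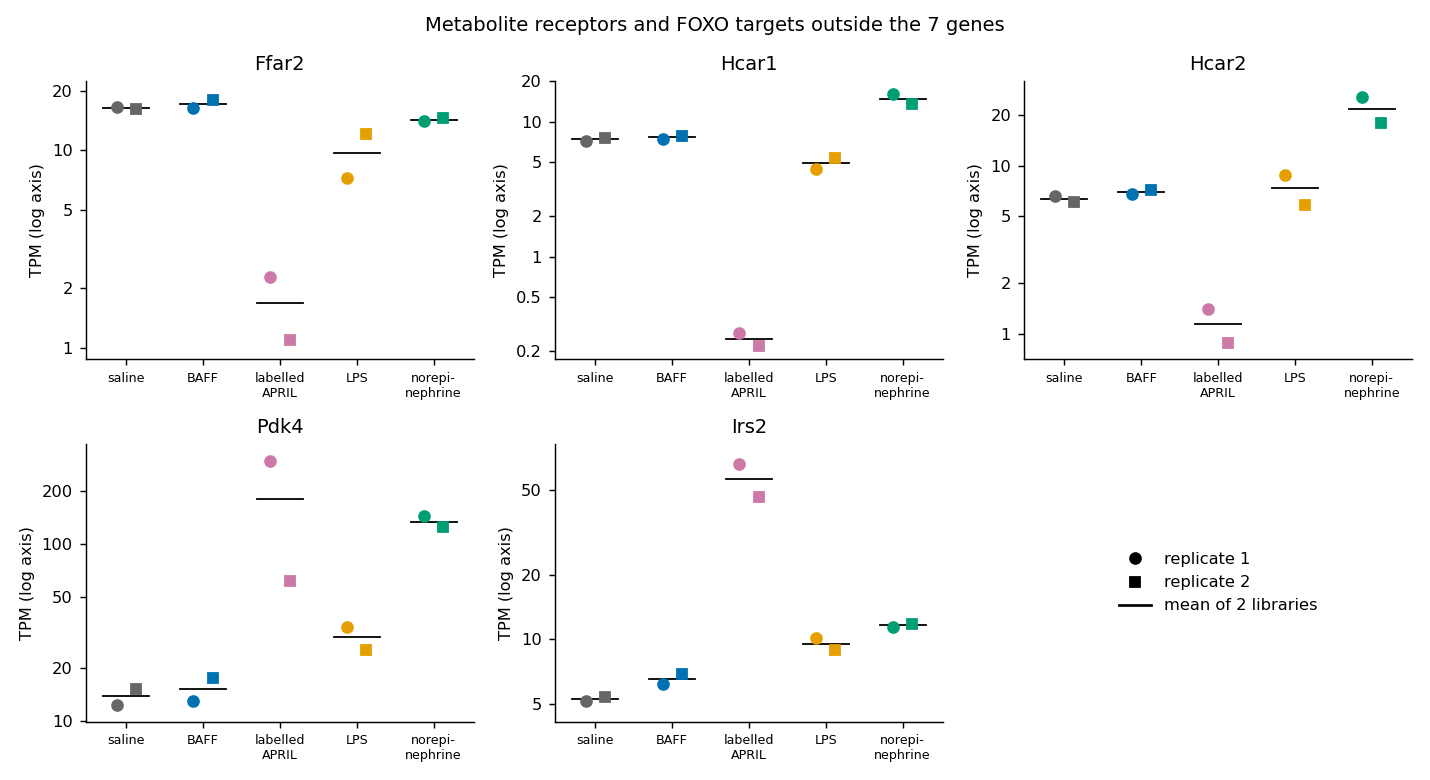
TPM (log axis) of 5 genes outside the chosen 7 in each library, by treatment group; circles are replicate 1, squares replicate 2, and bars the mean of 2 libraries. Hcar1 and Hcar2 were higher in both norepinephrine libraries than in both saline libraries, and Ffar2 was lower in both.

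Pim3 (ENSMUSG00000035828, GRCm38 chr15:88862186-88865726, plus strand) encodes a PIM kinase. PIM kinases have no regulatory domain, so their amount is set by transcription, messenger RNA stability and protein turnover, and JAK-STAT signalling is a known inducer. Pim3 was at 17.9 and 18.9 TPM in saline and at 77.7 and 67.5 TPM under norepinephrine. BAFF gave 18.8 and 21 TPM. LPS gave 31.5 and 25.3 TPM. All 4 libraries under LPS or norepinephrine lay above all saline and BAFF libraries, and the norepinephrine libraries lay above the LPS libraries. The norepinephrine mean was 72.6 ± 7.18 TPM (SD, n = 2) and the saline mean 18.4 ± 0.709 TPM (SD, n = 2), a difference of 1.92 (SE 0.20) in log2(TPM + 1). The libraries labelled APRIL were higher still, at 177 and 117 TPM.

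Pim1 (ENSMUSG00000024014, GRCm38 chr17:29490753-29496112, plus strand), the founding member of the family, began at the same level as Pim3 but had its order of treatments changed. It was at 18.9 and 16.8 TPM in saline, at 30.5 and 22.1 TPM under norepinephrine and at 46.4 and 33.6 TPM under LPS. BAFF gave 22.4 and 20 TPM, so the BAFF and norepinephrine libraries overlapped, while both LPS libraries were above them. The libraries labelled APRIL held 167 and 201 TPM. Pim1 shares 11.5% of its transcript 31-mers with other annotated transcripts, most of them with Gm26885 on the opposite strand, and the sources used here do not say whether reads were assigned by strand, so part of its level could belong to that gene.

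Pim2 (ENSMUSG00000031155, GRCm38 chrX:7878262-7883432, plus strand), the family member best known from lymphoid cells, was the lowest of the 3 kinase genes. It was at 2.6 and 1.95 TPM in saline and at 2.11 and 2.83 TPM under norepinephrine. LPS gave 1.24 and 3.07 TPM, and BAFF gave 2.82 and 1.93 TPM. The saline, BAFF, LPS and norepinephrine libraries all overlapped, and only the libraries labelled APRIL, at 6.43 and 5.63 TPM, were clear of them. The direction of its norepinephrine difference, 0.08 (SE 0.29), turned when a single library was left out. Pim2 shares 4.52% of its 31-mers with the predicted genes Gm7645 and Gm21182.

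The make-up of the family transcript pool differed accordingly. The TPM ratio of Pim3 to Pim1 was 0.945 and 1.12 in saline and 2.55 and 3.06 under norepinephrine. Under LPS it was 0.679 and 0.754, below both saline libraries. BAFF gave 0.84 and 1.05. Pim3 made up 45.4% and 50.2% of the summed TPM of the 3 genes in saline, 70.4% and 73% under norepinephrine, and 39.8% and 40.8% under LPS. The sum itself was 39.4 and 37.6 TPM in saline, 79.2 and 62 TPM under LPS, and 110 and 92.4 TPM under norepinephrine. Both LPS and norepinephrine had a larger pool than saline, with Pim1 as the larger share under LPS and Pim3 under norepinephrine. Pim3 was chosen by its norepinephrine and saline values, so the norepinephrine part of this describes that choice. Part of the Pim1 level in these ratios could belong to Gm26885, as said above.

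**Figure D3:**
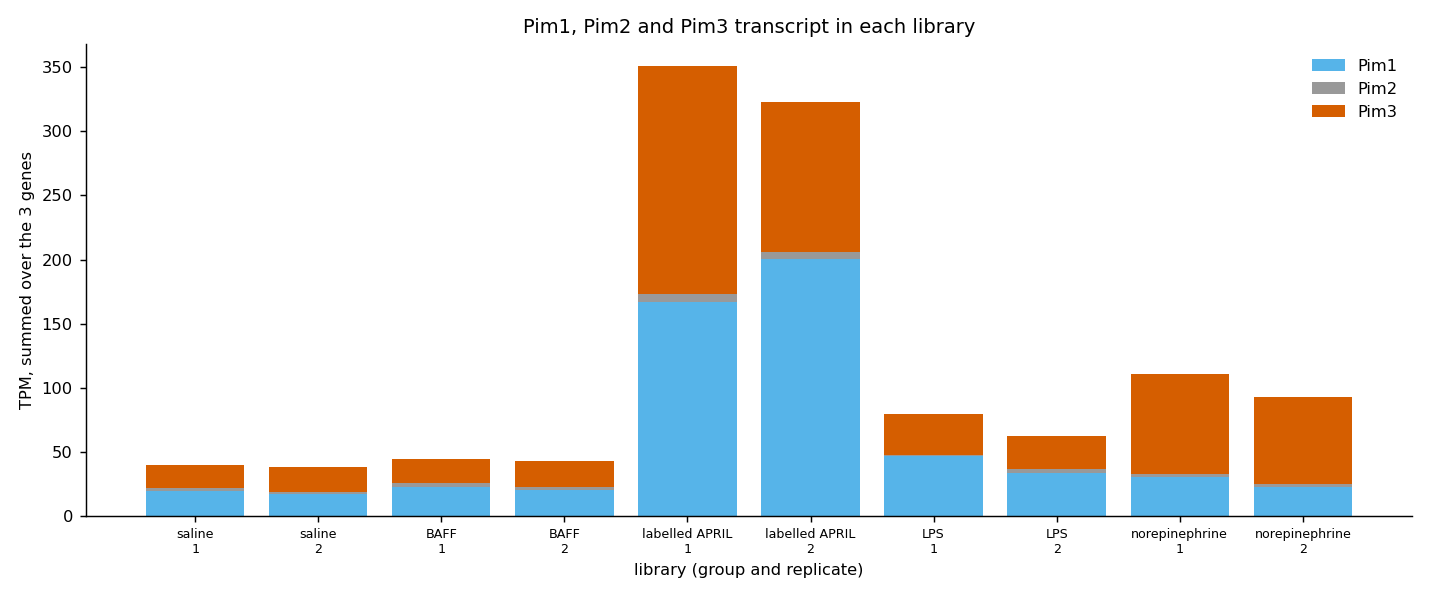
Stacked bars of Pim1, Pim2 and Pim3 TPM in each of the 10 libraries, with the axis starting at 0. Pim3, chosen by its norepinephrine and saline values, is the largest share in both norepinephrine libraries (70.4% and 73%) and Pim1 in both LPS libraries.

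Genes of the JAK-STAT pathway differed between these treatments too. Under LPS 3 of 15 tested genes rose and none fell, where 3.8% of all tested genes passed: Socs1 by 1.35 (adjusted p = 0.00965), Jak2 by 1.41 (adjusted p = 0.0313) and Socs3 by 0.70 (adjusted p = 0.0246). These calls were lost with a library left out: Socs1 and Jak2 without any 1 of the 4 saline and LPS libraries (adjusted p 0.0543 to 0.0785 and 0.0749 to 0.19), and Socs3 without either saline library or LPS replicate 1 (0.11 to 0.198). Socs1 and Socs3 encode feedback inhibitors of cytokine signalling, and Jak2 a receptor-bound kinase. Socs3 was at 65.9 and 61.4 TPM in saline, at 115 and 94 TPM under LPS and at 49.4 and 47.4 TPM under norepinephrine. Its norepinephrine difference of -0.39 (95% interval -0.68 to -0.10) did not pass the threshold. Under norepinephrine 1 of the 15 rose, beside 0.699% of all tested genes. Jak3, the kinase of cytokine receptors with the common gamma chain, rose by 0.88 (adjusted p = 0.0291). The list's median difference was 0.43 under LPS and 0.17 under norepinephrine, against -0.01 and 0.04 over all tested genes. Of the 10 tested PIM substrate genes, such as Bad and Cdkn1b, none passed under either treatment by limma. Without adjustment, 1 was higher under LPS at p under 0.05, and 1 was higher and 1 was lower under norepinephrine, where 16.5% and 17.6% of all tested genes reached that p.

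The promoter windows of the gene with a cAMP response element (Clstn3), of its annotated second start, of Pim3 and of Depp1, the gene with the largest norepinephrine difference of the 7, are printed here because the members' treatments act through signals with known DNA motifs. Each runs 5′ to 3′ on the gene's strand, from 250 bases before the RefSeq start to 30 bases from it on (RefSeq, GRCm38.p6). Capitals mark every match, on either strand, to a searched motif; all other bases are in lower case.
Clstn3 start 1, chr6:124464755-124465034, minus strand: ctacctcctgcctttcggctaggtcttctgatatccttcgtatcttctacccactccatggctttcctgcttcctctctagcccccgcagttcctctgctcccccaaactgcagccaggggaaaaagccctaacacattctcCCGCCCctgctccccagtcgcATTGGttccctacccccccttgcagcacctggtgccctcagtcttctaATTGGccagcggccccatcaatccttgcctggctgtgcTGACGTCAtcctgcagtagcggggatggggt
Clstn3 start 2, chr6:124462715-124462994, minus strand: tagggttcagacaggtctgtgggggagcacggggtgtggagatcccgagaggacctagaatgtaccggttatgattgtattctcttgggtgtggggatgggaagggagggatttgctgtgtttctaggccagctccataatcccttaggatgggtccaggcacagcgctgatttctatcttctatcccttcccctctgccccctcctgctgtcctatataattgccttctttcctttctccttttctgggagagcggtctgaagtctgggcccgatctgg
Pim3, chr15:88861944-88862223, plus strand: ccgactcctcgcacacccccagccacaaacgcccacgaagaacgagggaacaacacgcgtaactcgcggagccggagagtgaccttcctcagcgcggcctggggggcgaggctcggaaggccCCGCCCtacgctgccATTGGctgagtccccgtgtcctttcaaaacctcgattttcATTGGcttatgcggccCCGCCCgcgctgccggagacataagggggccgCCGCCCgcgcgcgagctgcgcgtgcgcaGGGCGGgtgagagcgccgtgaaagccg
Depp1, chr6:116650434-116650713, plus strand: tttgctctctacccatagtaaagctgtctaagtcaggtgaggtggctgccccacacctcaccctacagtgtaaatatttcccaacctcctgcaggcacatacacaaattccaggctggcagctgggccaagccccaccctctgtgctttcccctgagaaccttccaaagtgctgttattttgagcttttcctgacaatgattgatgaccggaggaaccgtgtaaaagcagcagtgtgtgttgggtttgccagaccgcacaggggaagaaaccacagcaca

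The motifs searched were the cAMP response element TGACGTCA and its short form TGACG (which lies within it), the FOXO motif TGTTTAC, the STAT motif TTCNNNGAA, the PPAR and RXR direct repeat, the NF-kB motif, the TATA core TATAAA, the GC box GGGCGG and the CCAAT box. Among 32817 RefSeq windows of this length, 1.74% hold TGACGTCA, 19.9% TGACG, 3.48% TGTTTAC, 7.83% TTCNNNGAA, 0.0366% the PPAR and RXR repeat, 1.54% the NF-kB motif, 13.1% TATAAA, 34.7% GGGCGG and 36.1% CCAAT. The first Clstn3 window holds TGACGTCA across its start, with its first base at position -1, where position -1 is the last base before the start. It also holds a GC box at -108 and CCAAT boxes, read on the reverse strand, at -87 and -39. The second Clstn3 window holds none of the motifs. Both Clstn3 windows lie near the 5′ end of the gene, and no other start within it was searched. Whether the transcript Clstn3b starts at either window was not examined, and the TPM values are per gene. Pim3 has GC boxes at -128, -57, -25 and 4 and CCAAT boxes at -113 and -73. Depp1 has no match. The Ffar4 and Sema3g windows, not printed, hold 1 GC box each, at -75 and -72. Of the family controls, also not printed, Pim1 has 7 GC boxes in its first window. Its second window holds a FOXO motif, read on the reverse strand, at -70. The Pim2 window holds a GC box at -52 and a CCAAT box at -101. A match is a run of letters and not a measured binding site, and a window without matches says only that these letters are not in it.

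Depp1 (ENSMUSG00000048489, GRCm38 chr6:116650609-116652794, plus strand) encodes a small protein induced by fasting and progesterone and by FOXO factors. Its saline libraries were nearly equal, at 1.78 and 1.78 TPM, and its norepinephrine libraries were at 27.1 and 12.3 TPM. LPS gave 7.8 and 3.37 TPM. BAFF gave 2.02 and 2.19 TPM. Both LPS libraries lay above all saline and BAFF libraries and below both norepinephrine libraries. The norepinephrine mean was 19.7 ± 10.5 TPM (SD, n = 2) against 1.78 ± 0.00496 TPM (SD, n = 2) in saline, a difference of 2.80 (SE 0.43) in log2(TPM + 1). The libraries labelled APRIL, at 2.72 and 1.34 TPM, overlapped saline.

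Depp1 had the widest gap between norepinephrine replicates of the 5 raised genes, and replicate 1 was the higher library under LPS as well. The summed TPM of the 10 macrophage markers also differed between replicates: it was 1318 in replicate 1 and 440 in replicate 2 of saline, 1638 and 442 under LPS, and 1304 and 301 under norepinephrine. Under BAFF it was 1117 and 511, and in the libraries labelled APRIL 511 and 348. Depp1 itself was nearly equal in the saline replicates, lower in replicate 1 of BAFF and higher in replicate 1 of the libraries labelled APRIL. Of 9 tested macrophage markers 0 passed under norepinephrine by limma, and 0 had an unadjusted p under 0.05, beside 17.6% of all tested genes. Ptprc, which encodes the leukocyte protein CD45, was at or below 0.218 TPM in all libraries. The part of macrophage content in the Depp1 gap was not tested.

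FOXO factors and their targets were examined as the regulators known for Depp1. Under norepinephrine 1 of 19 tested genes rose, Irs2, an insulin receptor substrate gene, by 1.01 (adjusted p = 0.0476), and none fell, beside 0.699% of all tested genes. At an unadjusted p under 0.05, 10 were higher and 1 was lower, beside 17.6% of all tested genes in either direction. The median difference of the list was 0.45, against 0.04 over all tested genes. Pdk4, which encodes the kinase that closes the pyruvate dehydrogenase step, was at 12.4 and 15.1 TPM in saline and at 144 and 125 TPM under norepinephrine, a difference of 3.20 that missed the threshold (adjusted p = 0.0632). Foxo1 itself was at 5.08 and 5.23 TPM in saline and at 7.51 and 7.27 TPM under norepinephrine. Under LPS no gene of the list passed by limma, and the median was -0.02. Unadjusted, 3 were higher and 1 was lower, beside 16.5% of all tested genes in either direction. Of 11 tested autophagy genes none passed under norepinephrine by limma, with 1 higher at an unadjusted p under 0.05: Ulk1, which encodes the kinase that starts autophagy, differed by 0.94 (adjusted p = 0.0624). Under LPS no autophagy gene passed by limma, and unadjusted 1 was higher and 1 was lower, beside the same 16.5% of all tested genes.

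Sema3g (ENSMUSG00000021904, GRCm38 chr14:31217860-31230352, plus strand) encodes a class 3 semaphorin, a secreted protein that signals through neuropilin and plexin receptors and is known from endothelium and fat. Its saline libraries were spread, at 4.11 and 1.53 TPM, and its norepinephrine libraries were at 23.7 and 19 TPM. BAFF gave 3.97 and 2.15 TPM, with replicate 1 the higher as in saline. LPS gave 7.06 and 5.3 TPM. The LPS libraries lay above all saline, BAFF and APRIL-labelled libraries and below both norepinephrine libraries. The norepinephrine mean of 21.4 ± 3.32 TPM (SD, n = 2) stood against 2.82 ± 1.83 TPM (SD, n = 2) in saline, a difference of 2.63 (SE 0.35) in log2(TPM + 1). The lowest norepinephrine library was 4.63 times the highest saline library.

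Since Sema3g is made by endothelial cells, their markers are given beside it. The summed TPM of endothelial markers was 46.6 to 53 in saline, 47.3 to 53.2 under norepinephrine and 43.6 to 49.1 under LPS, and these 3 ranges overlapped. None of 11 tested endothelial markers passed under norepinephrine by limma. At an unadjusted p under 0.05, 1 was lower, beside 17.6% of all tested genes in either direction. Cdh5, which encodes the cadherin of endothelial junctions, was at 4.22 and 5.42 TPM in saline and at 3.58 and 3.29 TPM under norepinephrine. The part of endothelial content in the Sema3g difference was not tested. Sums of some other cell types were lower under norepinephrine than in saline. Smooth muscle markers were at 964 to 1123 TPM against 1590 to 1691 TPM. Schwann cell and neuron markers were at 15.3 to 20 TPM against 31.4 to 32.8 TPM. Preadipocyte and fibroblast markers were at 7617 to 8940 TPM against 9009 to 10200 TPM. None of 8, 3 and 9 tested markers of these passed by limma. At p under 0.05 unadjusted, 4 smooth muscle markers were lower and 1 was higher, beside 17.6% of all tested genes in either direction. By the same measure 1 Schwann cell and neuron marker was lower, and 2 fibroblast markers were lower and 1 was higher. Their part in the differences of the 7 genes was not tested. Of the other class 3 semaphorins and their receptors, none of 11 tested genes passed under norepinephrine by limma. At an unadjusted p under 0.05, 2 were lower, beside the same 17.6% of all tested genes. The list's median was -0.08, against 0.04 over all tested genes. Nrp2, a neuropilin that binds SEMA3G, was at 25.5 and 18.3 TPM in saline, at 24.2 and 17.2 TPM under norepinephrine and at 57.1 and 37.1 TPM under LPS. Its LPS difference of 1.06 did not pass the threshold (adjusted p = 0.163). Sema3c, another ligand of the class, was at 2.34 and 2.75 TPM in saline, at 1.69 and 4.04 TPM under norepinephrine and at 5.12 and 7.78 TPM under LPS, with an LPS difference of 1.05 (adjusted p = 0.152). Under LPS both were thus on the same side of saline as Sema3g, without passing.

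**Figure D4:**
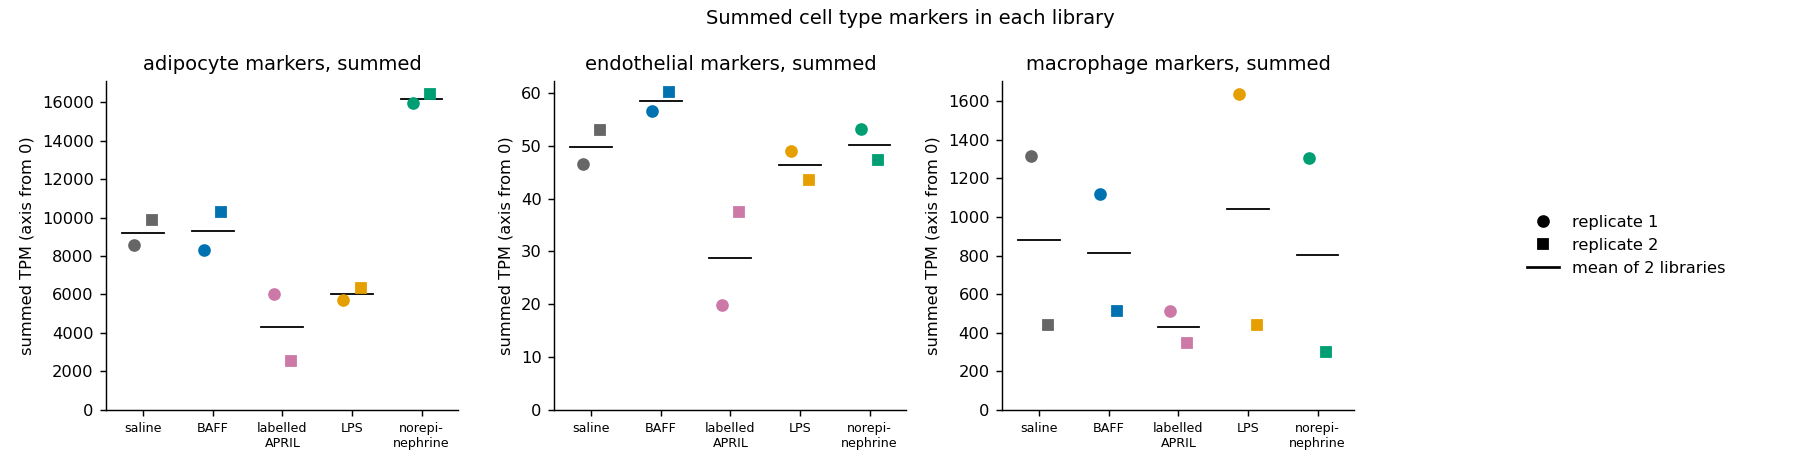
Summed TPM of adipocyte, endothelial and macrophage markers in each library, with axes starting at 0; circles are replicate 1, squares replicate 2, and bars the mean of 2 libraries. Adipocyte sums are highest under norepinephrine, endothelial sums overlap between saline, LPS and norepinephrine, and macrophage sums are higher in replicate 1 of every group.

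Clstn3 (ENSMUSG00000008153, GRCm38 chr6:124430759-124464794, minus strand) encodes calsyntenin 3, and its locus also gives the adipocyte transcript Clstn3b, whose product acts on lipid droplets and on the nerve supply of thermogenic fat. Deposited values are per gene, so the transcripts cannot be told apart. Clstn3 was at 2.24 and 3.01 TPM in saline and at 18.5 and 19.9 TPM under norepinephrine, the closest pair of norepinephrine libraries among the 5 raised genes. BAFF gave 2.59 and 3.4 TPM. LPS gave 1.12 and 2.06 TPM. The lower norepinephrine library was 6.14 times the higher saline library, and both LPS libraries lay below both saline libraries. The norepinephrine mean was 19.2 ± 0.987 TPM (SD, n = 2) against 2.62 ± 0.545 TPM (SD, n = 2) in saline, a difference of 2.48 (SE 0.34) in log2(TPM + 1). The libraries labelled APRIL held 2.04 and 0.478 TPM.

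The other calsyntenins did not follow Clstn3. Clstn1 was at 32.5 and 34.8 TPM in saline and at 26.1 and 37.3 TPM under norepinephrine. Clstn2 was at 0.305 and 0.298 TPM in saline, at 0.0984 and 0.0921 TPM under norepinephrine and at 1.14 and 1.36 TPM under LPS, so that it passed the filter on low values only through its LPS libraries, and no call is given for it. None of the 7 tested genes of the list passed under norepinephrine by limma. At an unadjusted p under 0.05, 1 was higher, beside 17.6% of all tested genes in either direction. That gene was Cidea, a lipid droplet protein of thermogenic fat, at 0.587 and 0.665 TPM in saline and at 15.1 and 7.71 TPM under norepinephrine. The difference was 2.87 (adjusted p = 0.0577). Cidea passed the filter on low values only through the norepinephrine libraries and those labelled APRIL.

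Adipocyte markers are given beside Ffar4 and Clstn3. The summed TPM of the 12 markers was 8563 to 9861 in saline, 15955 to 16409 under norepinephrine, 5691 to 6348 under LPS and 8310 to 10308 under BAFF, so it was above saline under norepinephrine and below it under LPS, as both genes were. None of 11 tested adipocyte markers passed in either comparison by limma. At an unadjusted p under 0.05, 3 were higher under norepinephrine and 3 lower under LPS, beside 17.6% and 16.5% of all tested genes in either direction. The libraries labelled APRIL, with these markers at 2553 and 6035 TPM summed, enter the spread behind both tests. Most of the sum is Fabp4, at 5452 and 6287 TPM in saline and 11391 and 11802 TPM under norepinephrine, whereas Adipoq was at 925 and 1062 TPM in saline and 918 and 934 TPM under norepinephrine. Cfd, which encodes the adipokine adipsin, was at 496 and 585 TPM in saline and 435 and 499 TPM under norepinephrine, and Lep at 0.457 and 0.806 TPM and 0.011 and 0.0358 TPM. Single markers thus lay on either side of saline under norepinephrine, but more of the list lay above it. The list's median difference was 0.56, against 0.04 over all tested genes. Cidec, Lipe, Pnpla2, Pparg, Cebpa, Retn and Plin4 were also higher in both norepinephrine libraries than in both saline libraries. Adipoq, Cfd and Plin1 overlapped saline, and Lep was lower in both. The part of adipocyte content in the Ffar4 and Clstn3 differences was not tested.

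Across the 8 libraries not labelled APRIL, Pearson correlations of log2(TPM + 1) put the 5 raised genes in 2 sets. Ffar4 and Clstn3 had r = 0.986. Pim3 had r = 0.972 with Depp1 and 0.944 with Sema3g, and Depp1 and Sema3g had r = 0.936. Between the sets r lay lower, from 0.741 for Depp1 and Clstn3 to 0.854 for Pim3 and Clstn3. These values describe libraries in 4 groups, and the norepinephrine libraries, by which the genes were chosen, set much of each r. Pim1 had r = 0.519 with Depp1 and -0.15 with Ffar4.

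LPS against saline was tested with limma across all 14166 genes, with the saline libraries shared with the comparison that chose the genes. Of the 7 genes 1 passed an adjusted p of 0.05, Pim1, where 3.8% of all tested genes did. Pim1 rose by 1.11 (95% interval 0.64 to 1.57, adjusted p = 0.0271). Pim3 differed by 0.60 (0.13 to 1.06, adjusted p = 0.181), Depp1 by 1.16 (0.17 to 2.15, adjusted p = 0.225) and Sema3g by 0.99 (0.17 to 1.81, adjusted p = 0.21). Ffar4 differed by -0.59 (-1.07 to -0.11, adjusted p = 0.198) and Clstn3 by -0.50 (-1.28 to 0.28, adjusted p = 0.551). For Pim2 the difference was -0.11 (-0.78 to 0.56). With the libraries labelled APRIL left out of the limma fit Pim3 passed as well (adjusted p = 0.04998). Both LPS libraries were above both saline libraries for 4 of the 7 genes, as for 24.2% of all tested genes, and below for 2, as for 25.5%. Markers of other cell types also differed under LPS. The smooth muscle markers Myh11 and Cspg4 fell (2 of 8 tested). Of 9 tested fibroblast markers Dcn and Pdgfra rose, and Lum (1.30) and Ly6a (0.70) were higher without passing. Fbn1 (-0.66), Cd34 (-0.37), Col1a1 (-0.13) and Col3a1 (-0.10) were lower without passing. The summed fibroblast markers overlapped, at 9693 to 10356 TPM under LPS and 9009 to 10200 TPM in saline. A further fibroblast marker, Pi16, was at 0.474 and 0.659 TPM in saline and at 3.05 and 2.6 TPM under LPS, and passed the filter on low values only through its LPS libraries. The calls of Pdgfra, Myh11 and Cspg4 were lost whichever saline or LPS library was left out (adjusted p between 0.0639 and 0.307), and that of Dcn without saline replicate 2 (0.0719) or LPS replicate 1 (0.0526). The part of these cell types in the differences of the 7 genes was not tested. The Pim1 call was lost without saline replicate 1 (adjusted p = 0.109), saline replicate 2 (0.196) or LPS replicate 1 (0.156).

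LPS against BAFF gave a difference of means that used no saline or norepinephrine library. The spread behind its intervals and p-values was still estimated from all 10 libraries, the saline and norepinephrine libraries included. The LPS libraries are those of the comparison with saline. None of the 7 passed by limma, where 3.36% of all tested genes did. At an unadjusted p under 0.05, 4 were higher and 1 was lower, where 18.2% of all tested genes passed in either direction. Pim1 differed by 0.87 (0.40 to 1.34, adjusted p = 0.066), Ffar4 by -0.66 (-1.14 to -0.18, adjusted p = 0.147), Depp1 by 1.00 (0.01 to 1.99, adjusted p = 0.272), Sema3g by 0.85 (0.03 to 1.67, adjusted p = 0.262) and Pim3 by 0.49 (0.02 to 0.95, adjusted p = 0.253). Clstn3 differed by -0.64 (-1.42 to 0.14) and Pim2 by -0.15 (-0.82 to 0.54). With the libraries labelled APRIL left out of the fit Ffar4 passed (adjusted p = 0.0496).

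BAFF against saline gave differences of 0.04 to 0.24 for the 7 genes, where the median of all tested genes was 0.11. None passed by limma, and none had an unadjusted p under 0.05. Of all tested genes 0.0141% passed by the adjusted and 2.84% by the unadjusted p. The largest, for Pim1, was 0.24 (-0.23 to 0.71). For Ffar4 the interval ran from -0.41 to 0.55 and for Depp1 from -0.83 to 1.15, so changes of that size could not be told from none with 2 libraries a group. No gene of the 8 pathway lists or 7 cell type lists passed under BAFF by limma; unadjusted, 1 gene each of the JAK-STAT, autophagy, semaphorin and cAMP lists was higher.

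**Figure D5:**
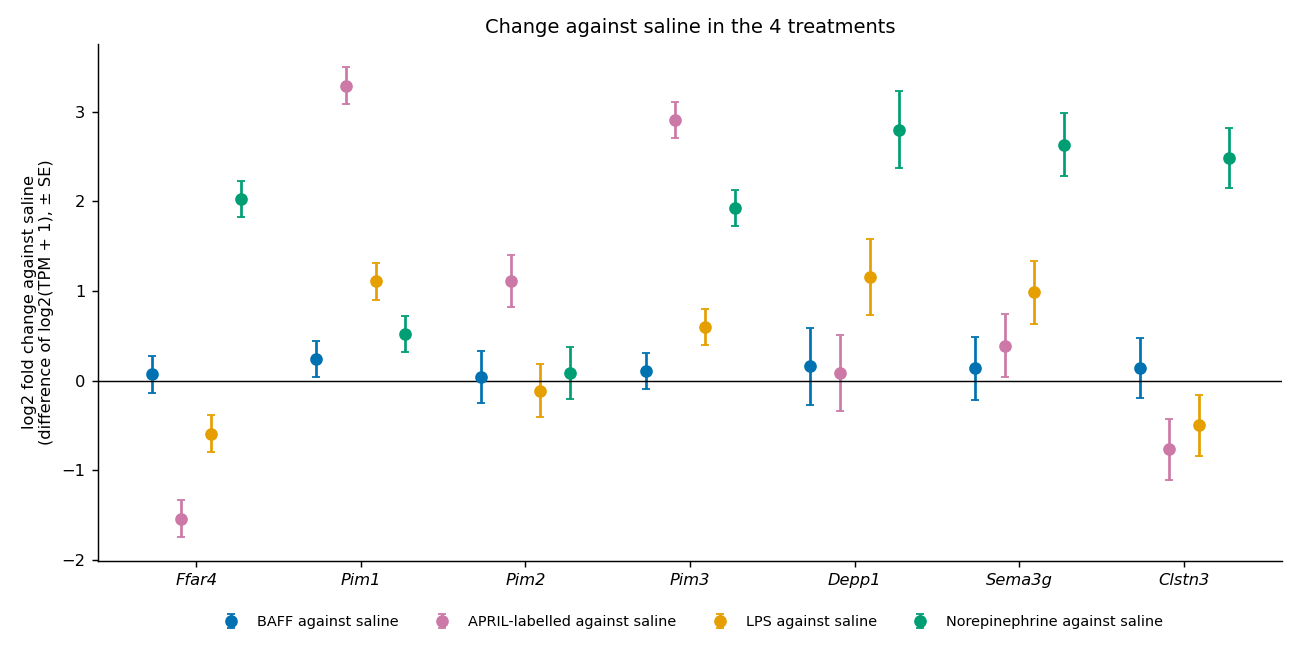
Difference from saline in log2(TPM + 1) for each gene and treatment; points are fitted differences and bars ± 1 SE from limma, with a line at 0. BAFF differences lie near 0, LPS differences are above 0 for Pim1, Pim3, Depp1 and Sema3g and below it for Ffar4 and Clstn3, and the norepinephrine differences chose Ffar4, Pim3, Depp1, Sema3g and Clstn3.

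In the libraries labelled APRIL 4 of the 7 genes passed against saline, where 58.1% of all tested genes did, a share near that background. Pim1 rose by 3.29 (adjusted p = 1.78e-05), Pim3 by 2.91 (adjusted p = 2.58e-05) and Pim2 by 1.11 (adjusted p = 0.0123), and Ffar4 fell by 1.54 (adjusted p = 4.81e-04). Depp1 differed by 0.09, Sema3g by 0.39 and Clstn3 by -0.77 (adjusted p = 0.879, 0.372 and 0.084). Pim2 lost its call without saline replicate 2 (adjusted p = 0.0717) or APRIL replicate 1 (0.0552), and Clstn3 passed without APRIL replicate 1 (0.00628). The lists moved widely in these libraries: 0 genes rose and 6 fell of the 10 receptor and G protein genes, 6 and 2 of 15 JAK-STAT genes, 6 and 4 of 10 PIM substrates, 11 and 4 of 19 FOXO genes, 8 and 1 of 11 autophagy genes, 0 and 5 of 11 semaphorin genes, 2 and 2 of 7 calsyntenin genes and 10 and 1 of 15 adrenergic and cAMP genes. Of the cell type markers 1 rose and 6 fell among 11 of adipocytes, 0 and 6 among 9 of fibroblasts, 0 and 5 among 11 of endothelium, 1 and 7 among 8 of smooth muscle and 1 and 1 among 3 of Schwann cells and neurons, while none of 9 macrophage markers passed by limma, adjusted or unadjusted. The lymphocyte marker Cd4 and the cAMP-induced gene Nr4a3, counted above as 1 of the 10 that rose, passed the filter on low values through these libraries, and the other 7 lymphocyte markers did not pass it. With the summed adipocyte markers at 2553 and 6035 TPM and the Y-linked transcripts noted above, the treatment and the source of these libraries cannot be told apart.

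The adrenergic and cAMP genes are the receptors of norepinephrine and known targets of its signal. Adrb3, the beta-adrenergic receptor gene of mouse fat cells, was at 119 and 141 TPM in saline, at 149 and 137 TPM under norepinephrine and at 51.6 and 49.9 TPM under LPS. Under norepinephrine 2 of 15 tested genes rose and none fell, beside 0.699% of all tested genes, and unadjusted 6 were higher, beside 17.6% of all tested genes in either direction. Ucp1, the uncoupling protein of thermogenic fat, was at 0.0461 and 0.123 TPM in saline and at 12.9 and 26.3 TPM under norepinephrine. Ucp1 rose by 4.17 (adjusted p = 0.028). It passed the filter on low values only through the norepinephrine libraries and those labelled APRIL, the latter at 7.1 and 1.47 TPM. Sik1, a CREB-induced kinase gene, was at 4.81 and 4.78 TPM in saline and at 10.8 and 10.1 TPM under norepinephrine, and rose by 0.98 (adjusted p = 0.0476). Under LPS Sik1 rose by 0.94 (adjusted p = 0.0188) and Pde4b, which encodes a cAMP-degrading enzyme, by 1.30 (adjusted p = 0.00266), while Adrb3 fell by 1.33 (adjusted p = 0.0497). With a library left out the Adrb3 call was always lost (adjusted p 0.147 to 0.288), that of Sik1 was lost without either saline library or LPS replicate 1 (0.0754 to 0.144), and that of Pde4b was kept. The fits that left out a library ended all 6 calls made under norepinephrine on the 8 pathway lists, those of Jak3, Irs2, Ucp1 and Sik1 included.

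The genes most like each raised gene across the 8 libraries not labelled APRIL were sought among 9054 named genes with a mean of at least 5 TPM. For Ffar4 they were Pck1 (r = 0.997), which encodes the glyceroneogenic enzyme phosphoenolpyruvate carboxykinase, then Ormdl3 and Cox6b1. Pck1 was at 3.62 and 4.2 TPM in saline, 56.1 and 51.3 TPM under norepinephrine and 1.32 and 1.57 TPM under LPS, so it shared the low LPS level of Ffar4. For Clstn3 they were Apmap (r = 0.998), an adipocyte membrane protein gene, and 2 genes of mitochondrial fatty acid metabolism, Acaa2 and Crat. For Pim3 they were Pdk4 (r = 0.998), Aifm2 and F11r. For Sema3g they were Bnip3 (r = 0.998), a mitophagy receptor gene, and the glycolytic enzyme genes Gpi1 and Aldoa. For Depp1 they were Flcn (r = 0.991), which encodes folliculin, then Tgoln1 and Stxbp2. With the libraries labelled APRIL included, r fell to 0.0264 for Depp1 and Flcn and to 0.0685 for Pim3 and F11r, and stayed at 0.923 for Ffar4 and Pck1 and at 0.975 for Clstn3 and Acaa2. These are the closest of many candidates over few libraries and are a description.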

How the data were processed

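RNA of the 10 cultures was prepared with an Illumina TruSeq kit, per the labels' protocols. The deposited values are TPM per Ensembl gene. The submitters' processing notes name kallisto, a pseudoaligner, and the mm10 build; the version, the annotation release and the use of strand are not given in the sources used here. TPM keeps no depth, and kallisto divides reads that fit several transcripts among them by estimate.

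Of 28987 identifiers, 27475 matched a symbol in GENCODE vM21, which also gave gene positions. Differences are differences of log2(TPM + 1), which understate the change of low genes. limma 3.58.1 in R 4.3.3 was fitted to all 10 libraries with 5 group means and a mean-variance trend, on the 14166 genes that reached 1 TPM in 2 or more libraries, leaving 5 residual degrees of freedom, and p-values were adjusted by Benjamini-Hochberg over all tested genes at 0.05. The fit was tested on simulated data. Figures and sequence searches used Python 3.11.15.

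The members and the lists (8 pathway and 7 cell type lists) were chosen with earlier results of these data known. Named genes were the 7 members, up to 4 genes past the threshold per list and comparison, defining cell type markers and the 3 genes most like each raised gene; Foxo1, Ulk1, Cidea, Nrp2, Sema3c, Clstn1, Nr4a3, Ffar2 and Pdk4 were named from the lists after their values were seen. Alternatives changed the pseudocount, filter, scaling, fitted groups and replicates.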

Additional observations from a re-analysis of the deposited data

How the results depend on the processing

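With 2 libraries a group and no counts, precision rests on few values. The 7 genes' count past 0.05 under LPS, 1 as reported, was 0 with no filter or only the compared groups, 2 without the libraries labelled APRIL, and 0 to 1 with a library left out. It stayed 0 under BAFF in every alternative run, and 3 to 4 in the libraries labelled APRIL. For LPS against BAFF it was 0, and 1 with the replicate block or without the libraries labelled APRIL. The 6 listed genes called under norepinephrine became 2 with pseudocount 0.1, 0 with no filter, 3 without mitochondrial genes, 26 without the libraries labelled APRIL and 0 to 0 with a library left out. Over all genes, calls ran from 112 to 922 for LPS (539 reported), 0 to 12 for BAFF (2), 81 to 884 for LPS against BAFF (476) and 0 to 843 for norepinephrine (99; 167 with the replicate block). The labels say nothing of what a replicate number shares. Differences between replicates 1 and 2 correlated across genes at 0.272 to 0.479 between the 4 groups not labelled APRIL and at -0.108 to 0.0264 with the libraries labelled APRIL, a hint from the data for the former. With the replicate block in the limma fit Pim1 passed for LPS against BAFF (adjusted p = 0.0496). Adrb3 (0.0568) and Cspg4 (0.0595) no longer passed for LPS against saline, nor Cspg4 (0.0568) for LPS against BAFF. No other call changed among the 7 genes and the named listed genes that had passed. Listed genes that had missed the threshold, such as Cidea, Ulk1 and Pdk4 under norepinephrine, were not followed through the alternatives. The same holds for listed genes in the libraries labelled APRIL. With a library left out, signs turned within these ranges: for Pim2 -0.54 to 0.32 under LPS, -0.15 to 0.23 under BAFF, -0.58 to 0.28 for LPS against BAFF and -0.0684 to 0.23 under norepinephrine; for Ffar4 -0.0145 to 0.15, Sema3g -0.37 to 0.65 and Clstn3 -0.0134 to 0.29 under BAFF; and for Depp1 -0.25 to 0.42 and Sema3g -0.12 to 0.90 in the libraries labelled APRIL. Under BAFF, median-ratio scaling, which moved the median of all genes from 0.11 to -0.00133, gave Ffar4 -0.0229, Pim2 -0.0469 and Pim3 -0.00666, and leaving out mitochondrial genes gave Pim2 -0.00741. Pseudocount 0.1 gave norepinephrine differences of 2.29 for Ffar4 and 2.84 for Clstn3. A mean of at least 5 TPM dropped Pim2. The causes were not tested.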
